A study of Mus musculus with 6 samples.

Results

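The chromosome 13 histone and tRNA gene cluster is described here as the deposited count intervals lying wholly between 21.2 and 24 Mb of mouse chromosome 13 (GRCm39). Of 1272548 deposited intervals in the whole genome, 2603 lay in this 2.8 Mb window, and 1975 of those held at least 1 read. The intervals overlapped heavily, so levels and tests use a set of non-overlapping intervals, taking those with most reads first. That set had 147 members in the window, of 88351 in the genome, and they covered 506 kb. Their median length was 718 bp, against 2672 bp for the 3830 non-overlapping intervals on the rest of chromosome 13. Of the 147 members, 70 held fewer than 10 reads over all libraries.

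Small RNAs of 15 to 36 nt were sequenced from testis germ cells of the mouse strain C57BL/6. Mice were wild type (WT) or lacked Dnmt3l (knockout, KO), which encodes a cofactor of the de novo DNA methyltransferases that has no catalytic activity of its own. At postnatal day 0 (P0) there was 1 library per genotype, from enriched neonatal germ cells. At postnatal day 8 (P8) there were 2 libraries per genotype, from a THY1+ fraction that is rich in stem and progenitor spermatogonia. THY1 is a surface protein used to enrich these cells. Age therefore cannot be told apart from the way the cells were prepared. The labels put all 6 libraries in 1 batch, and they leave unsaid what the replicates are (animals, pools or repeat libraries). The p-values below thus rest on the scatter among the deposited libraries alone, and that scatter may be technical. In bulk libraries, fewer cells of a type and less RNA per cell cannot be told apart. The knockout itself and the identity of the cells could not be checked, since the intervals carry no gene names.

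This region is the largest of the mouse clusters of replication-dependent histone genes. These genes encode the core histones H2A, H2B, H3 and H4 and the linker histone H1, are expressed mainly in S phase, and give mRNAs that end in a conserved stem-loop instead of a poly(A) tail. The cluster also carries many tRNA genes, transcribed by RNA polymerase III, whose transcripts can be cut into fragments within the size range sequenced here. Between the histone gene groups lies a block of vomeronasal type 1 receptor (Vmn1r) genes, which encode pheromone receptors of sensory neurons. The sequenced size class also covers microRNAs and the PIWI-bound piRNAs of germ cells, which direct transposon silencing.

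The annotation used here is RefSeq for GRCm38.p6, another build than that of the counts, so it gives the order of genes and not which interval holds which gene. From H2bc13 to H2ac1 it lists 255 genes. They include 56 histone genes, 77 tRNA genes and 75 Vmn1r genes, of which 39 are pseudogenes. The histone genes form 2 blocks, 24 before the first Vmn1r gene and 32 after the last, with 0 between. The tRNA genes follow the same split, 32 before and 45 after. Smaller families in this stretch are the zinc finger genes Zfp184 and Zfp322a, 2 butyrophilin genes (Btn1a1 and Btn2a2), 4 Slc17a genes, which encode anion and phosphate transporters, and Trim38, a tripartite motif gene. No olfactory receptor gene is listed between H2bc13 and H2ac1. Any genes of the window outside this stretch were not examined.

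1 microRNA gene, Mir1983, is listed from H2bc13 to H2ac1, between the tRNA genes n-TFgaa1 and n-TItat14. Its RefSeq sequences are shown because it is the only small RNA with an annotated mature form there. In the first line the capitals mark the seed, bases 2 to 8, and in the second they mark the mature sequence within the hairpin.
mmu-miR-1983: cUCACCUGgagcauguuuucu
Mir1983 hairpin: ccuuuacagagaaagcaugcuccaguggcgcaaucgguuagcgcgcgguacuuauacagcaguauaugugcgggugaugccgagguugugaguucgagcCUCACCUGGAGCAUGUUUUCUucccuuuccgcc
The mature form has 21 nt and the hairpin 132 nt. Which of the reads below came from this gene was not analysed here.

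The 6 libraries held 4370403 to 6119823 reads in the non-overlapping set. The window took 12378 (WT P0), 11449 (KO P0), 15874 and 14143 (WT P8) and 14073 and 14791 (KO P8) of these reads. Levels are given as CPM, reads scaled to the library size after edgeR's TMM factors, which align the bulk of intervals between libraries. The window summed to 1394 CPM (WT P0) and 1950.3 (KO P0), and to 3024 and 2946 (WT P8) and 3459 and 3658 (KO P8). On this scale all 4 P8 libraries were above both P0 libraries, and both KO P8 libraries were above both WT P8 libraries. The ratio of P8 to P0 was 2.14 in WT and 1.82 in KO. Scaled by library totals alone it was 1.27 and 1.13, and KO P0 (2619.7 reads per 1000000) was then above both WT P8 libraries (2594 and 2543).

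Most reads lay on either side of a nearly empty stretch. A shorter gap lay before it: the 0.1 Mb bins from 21.7 and 21.8 Mb had 0 and 0.852 CPM on average, between bins of 97.8 and 497 CPM. With the window cut into 4 sections of 0.7 Mb, section 4 (23.3 to 24 Mb) held 64.7% of the window's P8 reads and 44.3% of its P0 reads. Section 2 (21.9 to 22.6 Mb) held 28.2% and 39.4%, and section 1 (21.2 to 21.9 Mb) 7.0% and 15.7%. Section 3 (22.6 to 23.3 Mb) held 0.119% of P8 and 0.613% of P0 reads, in 4 members that covered 1.71% of its length. Its level was 3.05 to 4.92 CPM in the P8 libraries, against 7.32 (WT P0) and 13.8 (KO P0). Of 28 bins of 0.1 Mb, 5 had no member, 12 were under 1 CPM on average, and the 5 highest held 82.7% of the window's level.

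**Figure D1:**
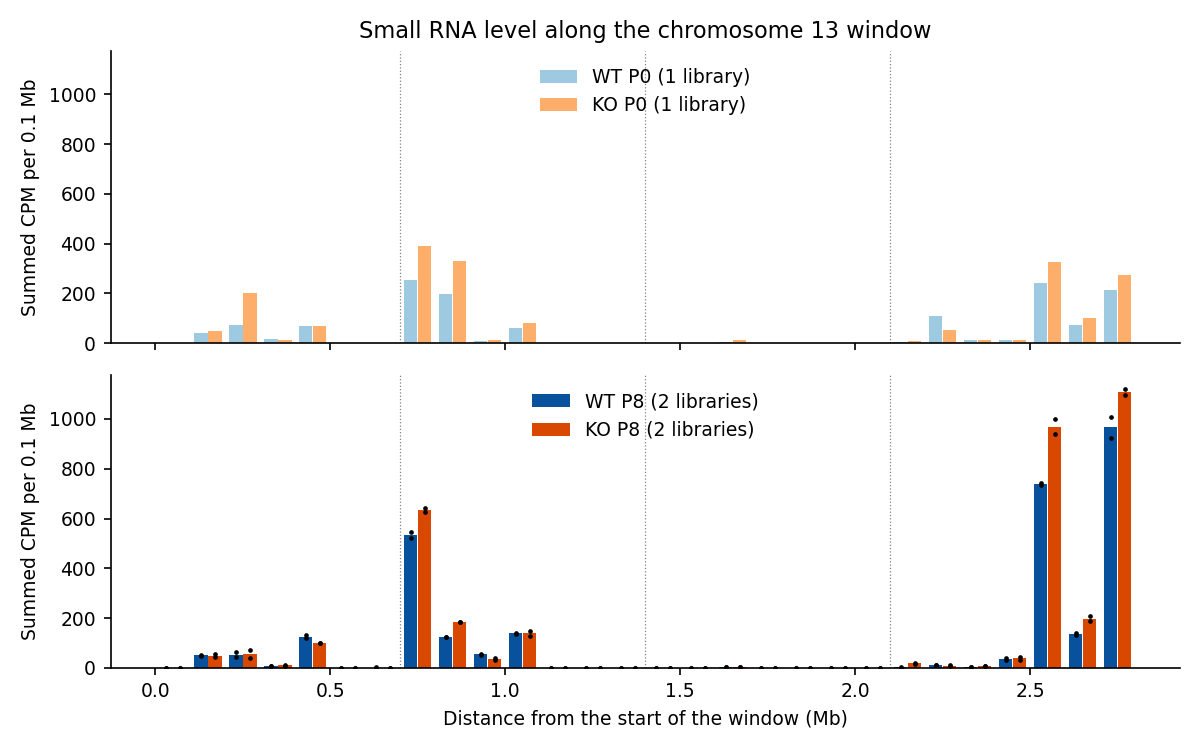
Summed CPM of non-overlapping intervals in bins of 0.1 Mb along the 2.8 Mb window, at P0 above and P8 below, for WT and KO. Bars are the library or the mean of 2 libraries, dots are single P8 libraries, and dotted lines divide the window into sections of 0.7 Mb. Section 3 is nearly empty at both ages, and the tallest bars at P8 are in section 4.

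Sections 1 and 4 had different P8 to P0 ratios. Section 4 had 666 CPM (WT P0), 792 (KO P0), 1892 ± 66.1 (WT P8) and 2347 ± 77.5 (KO P8), as mean ± SD with n = 2 at P8. P8 was 2.84-fold above P0 in WT and 2.96-fold in KO. Section 1 had 200.4 CPM (WT P0), 334 (KO P0), 238 ± 25.9 (WT P8) and 214 ± 30.9 (KO P8), ratios of 1.19 and 0.640. In section 2 the ratios were 1.64 in WT and 1.22 in KO. With library totals the ratios were 1.68 in WT and 1.84 in KO for section 4, 0.970 and 0.759 for section 2, and 0.705 and 0.397 for section 1, so section 1 in WT and section 2 in both genotypes changed direction with the scaling. The section ratios were not tested.

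The 12 most abundant members held 68.8% of the window's P8 reads and 52.8% of its P0 reads. Of these, 7 lay in section 4 and 5 in section 2. The highest was chr13:23943827-23949485 (5659 bp), with 84.6 CPM (WT P0), 110 (KO P0), 454 and 456 (WT P8) and 528 and 576 (KO P8). It alone took 15.4% of the window's P8 reads. It was lower in both P0 libraries than in any P8 library, though still among the more abundant members at P0. It was highest in the KO P8 pair, which did not overlap the WT P8 pair.

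The second, chr13:23734522-23740332 (5811 bp), had 70.7 CPM (WT P0), 87.7 (KO P0), 201 and 205 (WT P8) and 312 and 353 (KO P8). Here the genotypes did not overlap at P8. The third, chr13:23927895-23932135 (4241 bp), had 42.9 CPM (WT P0), 54.7 (KO P0), 293 and 238 (WT P8) and 315 and 263 (KO P8), so the genotypes overlapped at P8 while P8 stood above P0.

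The fourth, chr13:21998267-22018095 (19829 bp), ran the other way with age. It had 196 CPM (WT P0) and 326 (KO P0), but 105 and 99.6 (WT P8) and 168 and 166 (KO P8). Both P0 libraries were above all 4 P8 libraries, and KO was above WT at each age. Its neighbour chr13:21992691-21997783 (5093 bp) showed neither pattern as clearly, with 77.7 CPM (WT P0), 120 (KO P0), 89.3 and 85.2 (WT P8) and 95.1 and 99.7 (KO P8).

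The other 7 of these members had means of 78.0 to 149 CPM, and in each of them all 4 P8 libraries were above both P0 libraries on the TMM scale. They were chr13:23754193-23761140, chr13:23932292-23938076, chr13:23726164-23730861, chr13:21899170-21903936, chr13:23764248-23771329, chr13:21965918-21971491 and chr13:22223512-22228505. Per kb of interval the highest member had 65.1 CPM and chr13:21998267-22018095 had 8.91, so the latter ranks high through its length.

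**Figure D2:**
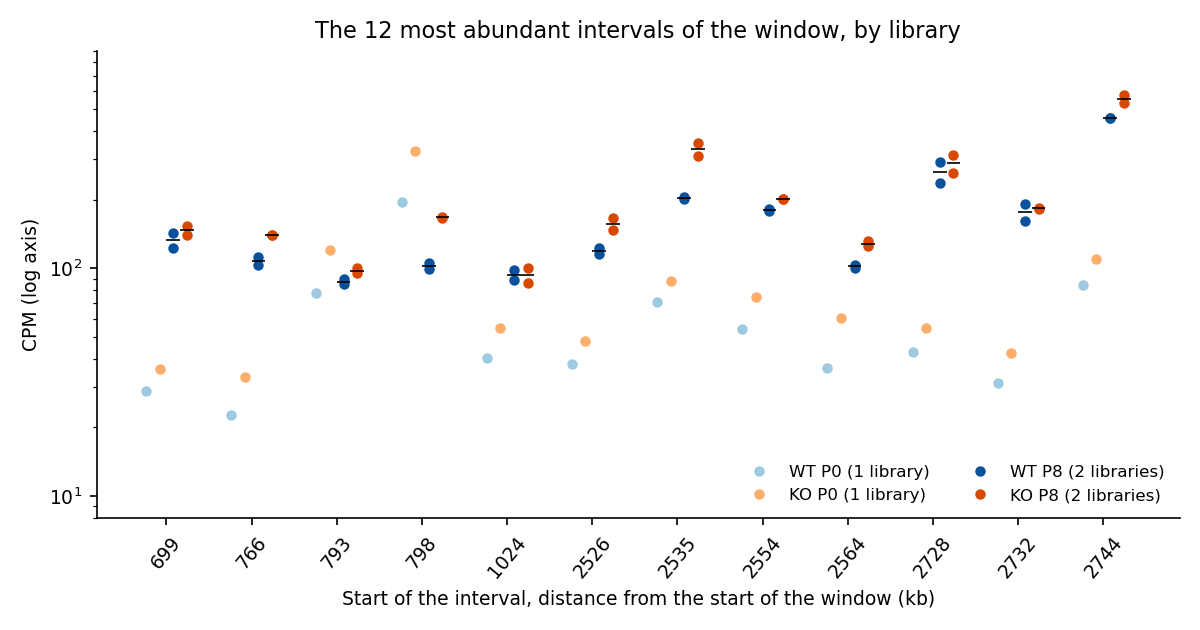
CPM on a log axis for the 12 most abundant members in each of the 6 libraries, ordered by position (start in kb from the window's start). Points are libraries and black lines are means of the P8 pairs. On this TMM scale all P8 points of 10 members lie above both P0 points, and in the member at 798 kb they lie below.

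Where a shorter deposited interval lay inside a member, the position of its reads could in some cases be narrowed. Of the 12 members, 6 held no deposited interval of up to 1000 bp. The densest interval of that size held only 0.342% of the reads in chr13:23932292-23938076 and 0.0324% in chr13:23726164-23730861. It held 0.0766% in chr13:21965918-21971491 and 0.0421% in chr13:22223512-22228505. In chr13:23764248-23771329 (7082 bp), the inner interval chr13:23769203-23770004 held 1950 reads, 71.1% of the member's reads in 11.3% of its length. Subtracting nested intervals gave 1234 reads, 45% of the member's, for the 122 bp of chr13:23769868-23769989, the densest result of 270 pairs. The 2 intervals of a pair could also differ by some bases at their other end, so part of these reads may lie there. That segment had 12.2 CPM (WT P0), 26.7 (KO P0), 48.6 and 43.7 (WT P8) and 66.1 and 58.1 (KO P8), the same order of groups as the whole member.

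In chr13:23943827-23949485, the same subtraction, with the same limit, gave 2403 reads, 23.0%, for the 411 bp of chr13:23947560-23947970. This segment is 7.26% of the length and was the densest result of 3 pairs. Its level was 17.9 CPM (WT P0), 21.5 (KO P0), 95.6 and 111 (WT P8) and 116 and 152 (KO P8). In chr13:21998267-22018095, the densest interval of up to 1000 bp was chr13:22017245-22017563 (319 bp), with 4.69% of the reads in 1.61% of the length. From 283 reads over the 6 libraries, it had 6.19 CPM (WT P0), 8.52 (KO P0), 9.52 and 7.91 (WT P8) and 10.3 and 11.9 (KO P8). On this TMM scale it did not show the drop with age of the interval around it. Scaled by library totals, each P8 library was below the P0 library of its genotype. Neither difference was tested. In the other members where the subtraction could be made, its densest result held 0.0669% to 1.01% of the reads. The nested subtraction was chosen after the values were seen, and a read at a border may be counted on either side.

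From P0 to P8, 10 of the 12 most abundant members rose and 1 fell in each genotype. The 12 were picked by the mean over 6 libraries, of which 4 were P8, so the choice favours members high at P8. The second highest members of WT P0 (chr13:23483438-23497521) and of KO P0 (chr13:21405863-21421713) both fell and are not among the 12. The question is how small RNA from the cluster differs between neonatal germ cells and P8 progenitors. With edgeR's quasi-likelihood test and Benjamini-Hochberg adjustment at 0.05, 65 members could be tested. Each P0 group is 1 library and has no spread of its own, so the SE and p-values of all age contrasts use the scatter within the P8 pairs. In WT, 33 rose and 17 fell, against 29.5% of all 37627 tested intervals called higher and 38.5% called lower. In KO, 31 rose and 14 fell, against 26.4% and 31.2%. The median log2 change over the 65 was 0.80 in WT and 0.69 in KO, against -0.47 and -0.27 over all tested intervals. On the rest of chromosome 13, where 1638 were tested, 368 rose and 769 fell in WT, with a median of -1.05, and 312 rose and 628 fell in KO, with a median of -0.83.

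The 2 genotypes called largely the same members. In both, 28 rose and 11 fell, and 1 member, chr13:23359311-23361208, fell in WT and rose in KO. With library totals its rise in KO was 0.69 (log2) and was not called. The 33 that rose in WT had a median length of 4994 bp, and the 17 that fell 2049 bp. The 33 held 48.0% of the window's P0 reads and 85.2% of its P8 reads, and the 17 held 35.9% and 7.44%, shares that follow in part from how the members were called. Of the 34 members of at least 10 CPM, 26 rose and 4 fell in WT, and 25 rose and 4 fell in KO. The limit of 10 CPM is on the mean over all libraries, most of them P8, so it too favours members high at P8. The shares among all intervals of the genome at that level were not computed.

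These counts depended on the scaling. The TMM factors were 1.45 and 1.34 at P0 and 0.829 to 0.863 at P8. With library totals alone, 23 members rose and 26 fell in WT, and 21 rose and 21 fell in KO. Over all tested intervals, library totals called 19.7% higher and 52.6% lower for WT, against 17.2% higher and 44.7% lower for KO. The median over all tested intervals then moved from -0.47 to -1.22 in WT and from -0.27 to -0.95 in KO, and the median of the 65 members from 0.80 to 0.04 and from 0.69 to -0.00048. The gap between these medians is nearly fixed, because a scaling moves all intervals alike. Each of the 23 and 21 members that rose with library totals also rose with TMM. Of the 12 most abundant members, 10 rose and 2 fell in WT with library totals, and 9 rose and 2 fell in KO. Of the 34 members of at least 10 CPM, 19 rose and 7 fell in WT, and 17 rose and 7 fell in KO.

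Scaling does not enter the share of chromosome 13 reads that fell in the window, which spans 2.32% of the chromosome. The share was 5.77% in WT P0 (95% Wilson interval 5.67 to 5.87) and 6.64% in KO P0 (6.52 to 6.75). It was 10.04% (9.89 to 10.2) and 9.68% (9.53 to 9.83) in WT P8, and 8.85% (8.71 to 8.99) and 9.35% (9.21 to 9.49) in KO P8. These intervals cover counting error only. The share was 1.71-fold higher at P8 than at P0 in WT and 1.37-fold higher in KO. All 4 P8 libraries were above both P0 libraries, and the 2 genotypes were in opposite order at the 2 ages.

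**Figure D3:**
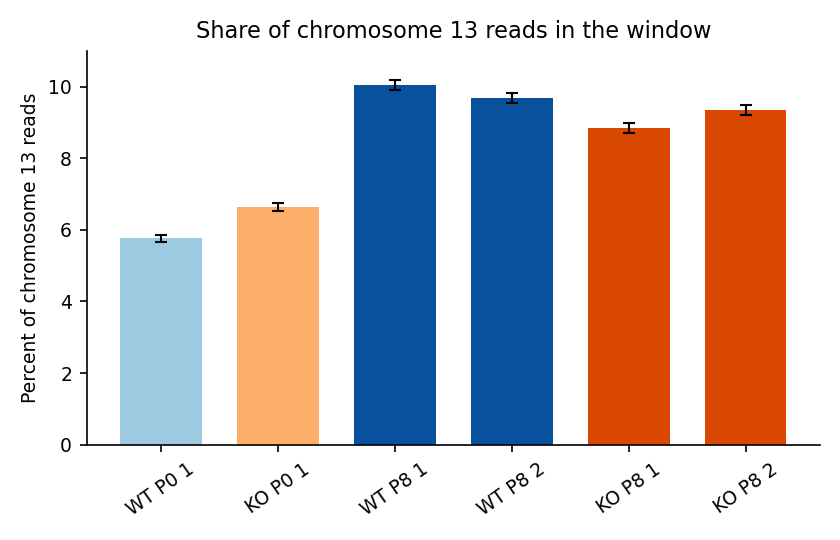
Percent of chromosome 13 reads in the window for each of the 6 libraries, with 95% Wilson intervals (counting error only). The P0 libraries are at 5.77% and 6.64%, and the P8 libraries lie between 8.85% and 10.04%.

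Named members give the size of the age differences. The highest rise among called members of at least 10 CPM in KO, and the second highest in WT, was at chr13:21627221-21633274 (6054 bp). It had 10.9 CPM (WT P0), 5.79 (KO P0), 77.0 and 84.3 (WT P8) and 46.9 and 48.2 (KO P8). Its log2 change was 2.88 ± 0.16 (SE) in WT and 3.03 ± 0.19 in KO (edgeR adjusted p = 4.01e-06 and 9.41e-06). WT was above KO at both ages, the reverse of most abundant members.

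The member chr13:22097995-22121687 (23693 bp) had 5.40 CPM (WT P0), 9.54 (KO P0), 43.4 and 47.1 (WT P8) and 26.1 and 36.6 (KO P8). It rose by 3.06 ± 0.26 (log2, SE) in WT and by 1.71 ± 0.26 in KO. In chr13:21437747-21460756 (23010 bp) the libraries had 4.05 CPM (WT P0), 4.60 (KO P0), 23.0 and 35.4 (WT P8) and 15.2 and 30.7 (KO P8). Its rise of 2.84 ± 0.48 in WT had an adjusted p of 0.00134 in edgeR and missed the threshold without either WT P8 replicate (3.13 without replicate 1 and 2.52 without replicate 2). The highest member, chr13:23943827-23949485, rose by 2.43 ± 0.11 in WT and 2.33 ± 0.11 in KO, and chr13:23927895-23932135 by 2.63 ± 0.18 and 2.40 ± 0.18.

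The deepest falls among such members were in sections 4 and 1. In chr13:23483438-23497521 (14084 bp), at the start of section 4, the libraries had 100.1 CPM (WT P0) and 44.6 (KO P0), but 8.19 and 9.79 (WT P8) and 5.16 and 10.1 (KO P8). It fell by 3.48 ± 0.24 (log2, SE) in WT and by 2.54 ± 0.27 in KO (edgeR adjusted p = 1.07e-05 and 0.000159). In chr13:21405863-21421713 (15851 bp), in section 1, they had 70.0 CPM (WT P0) and 195 (KO P0), then 18.5 and 30.0 (WT P8) and 25.3 and 40.6 (KO P8). It fell by 1.54 ± 0.29 in WT, a call lost without either WT P8 replicate (-1.21 without replicate 1 and -1.91 without replicate 2), and by 2.57 ± 0.28 in KO. The abundant chr13:21998267-22018095 fell by 0.93 ± 0.10 and 0.96 ± 0.10.

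**Figure D4:**
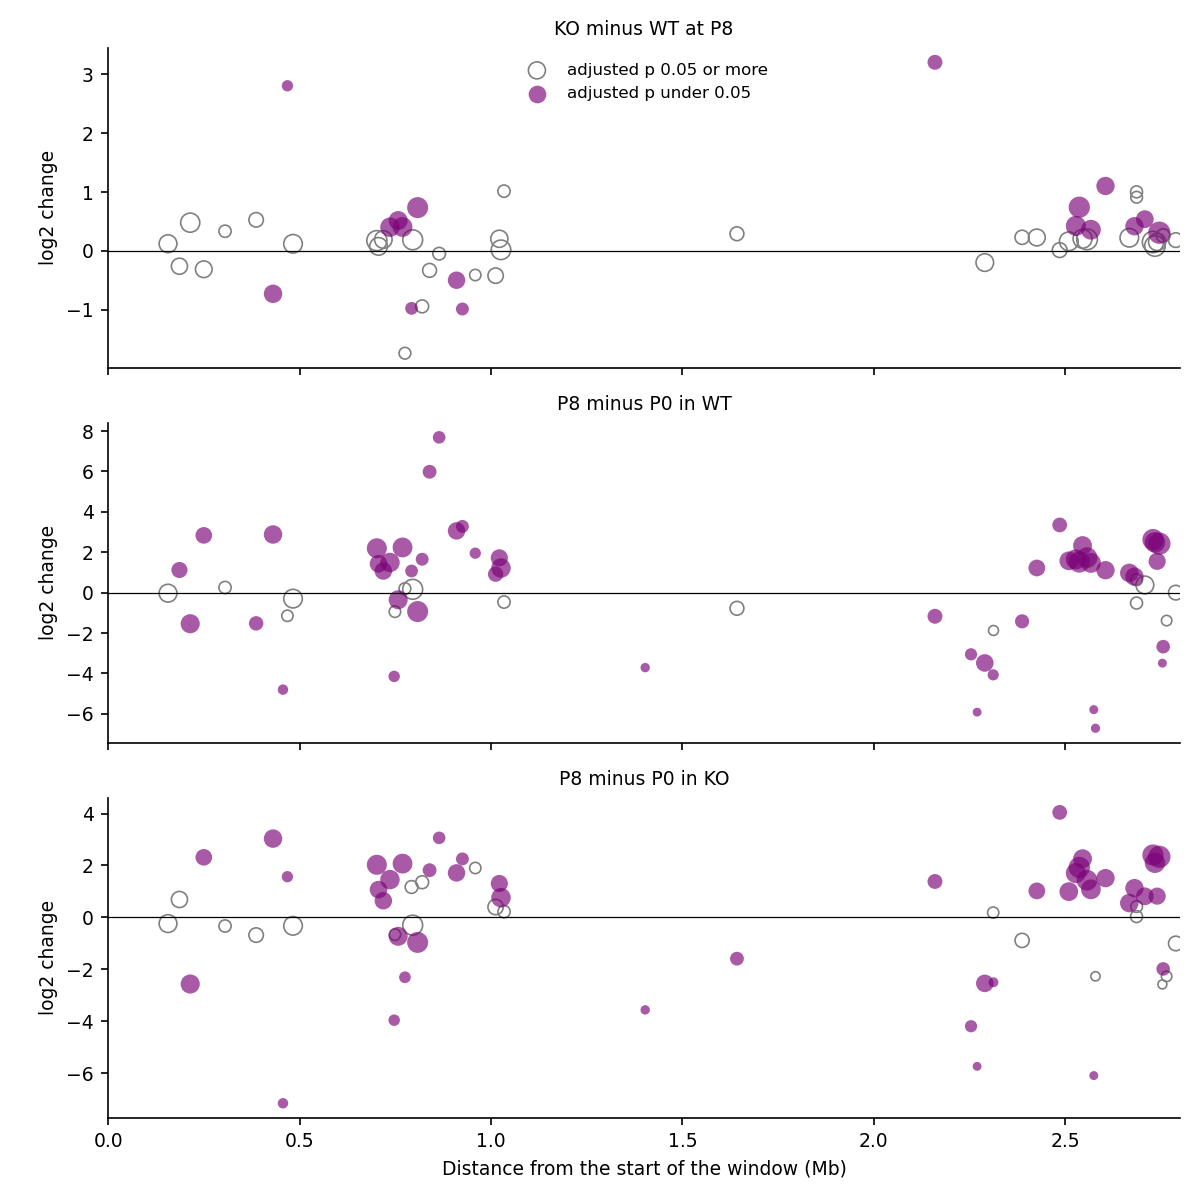
Log2 changes of tested members along the window for KO minus WT at P8 (53 members) and P8 minus P0 in WT and in KO (65 members each). Points grow with mean CPM, filled points have an adjusted p under 0.05, and the vertical scale differs between panels. Large filled points lie mostly above 0 in the age panels, and the points below -2 are mostly small.

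At P8 the summed level of the window was moderately higher in KO than in WT, and by less than the sum over the rest of the chromosome. The comparison asks what loss of Dnmt3l changes in these progenitors. Its summed CPM was 2985 ± 55.3 (WT) and 3558 ± 140 (KO), mean ± SD with n = 2, a ratio of 1.19. The rest of chromosome 13 was 1.30-fold higher in KO, and the window's share of chromosome 13 reads was 9.86% ± 0.255 in WT and 9.10% ± 0.351 in KO (SD, n = 2 each). For each of these 3 quantities the 2 genotypes did not overlap. The exact permutation test gave p = 0.333 (two-sided), the smallest that 2 libraries against 2 allow.

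Of 53 members tested at P8, 13 were higher in KO and 4 lower with edgeR, against 22.5% of 23200 tested intervals called higher and 20.1% called lower. On the rest of chromosome 13, 240 of 890 were higher and 131 lower. The median log2 change was 0.20 in the window, 0.09 on the rest of the chromosome and -0.01 over all. With library totals the window had 12 higher and 5 lower. Among the 12 most abundant members, 6 were higher and 0 lower with edgeR (of the 53, 21 had an unadjusted p under 0.05). The shares among equally abundant intervals of the genome were not computed. The shares over all 23200 are no like measure, since more reads make a call easier. Without either WT P8 replicate 7 members were higher and 1 was lower.

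The largest difference among called members of at least 10 CPM was at chr13:23804261-23807660 (3400 bp). It had 34.9 and 34.4 CPM (WT P8) and 61.4 and 84.3 (KO P8), a log2 change of 1.10 ± 0.15 (SE; edgeR adjusted p = 9.49e-05). At P0 it had 16.0 CPM in WT and 25.6 in KO. The abundant chr13:23734522-23740332 differed by 0.74 ± 0.10 and chr13:21998267-22018095 also by 0.74 ± 0.10 (edgeR adjusted p = 5.41e-05 and 9.25e-05). The latter was higher in KO and fell with age. Both kept their call without any 1 P8 replicate.

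Smaller differences were often lost when 1 library was left out. In chr13:21949058-21965633 (16576 bp), near the abundant members of section 2, the libraries had 42.7 and 42.9 CPM (WT P8) and 60.5 and 59.3 (KO P8), a log2 change of 0.52 ± 0.12 that missed the threshold without WT replicate 1 (0.49). In chr13:23892583-23924835 (32253 bp), the longest member, they had 29.5 and 31.9 (WT P8) and 34.7 and 52.7 (KO P8). Its change of 0.54 ± 0.18 was lost with library totals (0.46), DESeq2 (0.54), no read filter (0.55) and every deposited interval (0.41), without either WT replicate (0.46 and 0.57) and without KO replicate 2 (0.21). The highest member, chr13:23943827-23949485, differed by 0.31 ± 0.08, a call lost with every deposited interval (0.18) and without either WT replicate (0.28 and 0.29). Calls were also lost without either WT replicate for chr13:23726164-23730861 (0.43 ± 0.11, then 0.36 and 0.44) and chr13:23764248-23771329 (0.36 ± 0.10, then 0.36 and 0.31), and for chr13:21965918-21971491 (0.41 ± 0.10) without WT replicate 2 (0.32). The first 2 of these were lost with no read filter too (0.44 and 0.38), and the second with every deposited interval (0.23).

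Among members of at least 10 CPM, 2 were lower in KO. The first was chr13:21627221-21633274, the member with the strong rise in age, at 80.7 ± 5.23 CPM in WT and 47.6 ± 0.901 in KO (SD, n = 2 each). Its log2 change was -0.73 ± 0.11 (SE; edgeR adjusted p = 0.000282). The other was chr13:22097995-22121687, whose change of -0.50 ± 0.16 (edgeR adjusted p = 0.0245) was lost with DESeq2 (-0.50), with no read filter (-0.48), without either WT replicate (-0.58 and -0.47) and without KO replicate 1 (-0.28). Below 10 CPM, chr13:21992056-21992519 (-0.98 ± 0.35) and chr13:22124943-22125443 (-0.99 ± 0.31) were also lower, and chr13:23359311-23361208 (3.21 ± 0.30) and chr13:21667371-21668258 (2.81 ± 0.53) were higher. These 4 were named after their values were seen, and the last had 2 to 17 reads in each P8 library. The 4 members that were lower lay in sections 1 and 2, where 29 of the 53 tested members were, and 8 of the 13 that were higher lay in section 4, where 23 were. This split was not tested.

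At P0 there was 1 library per genotype and so no replicate check, and ratios carry exact conditional binomial 95% intervals for counting error only. The window was 1.40-fold higher in KO than in WT (1.36 to 1.44), and the rest of chromosome 13 was 1.20-fold higher. Of the 39 members with at least 100 reads in these 2 libraries, 34 had a ratio above 1. On the rest of chromosome 13 it was 301 of 601, and over all such intervals 6013 of 14108. The median log2 ratio was 0.41 in the window, 0.00062 on the rest of chromosome 13 and -0.11 over all. With library totals 30 of the 39 were above 1, with a median of 0.30, against 248 of 601 and 5016 of 14108. By at least 2-fold, 3 of the 39 were higher (7.69%) and 1 lower (2.56%), near the 9.84% and 4.35% of all such intervals. With library totals 2 were higher and 2 lower, against 8.41% and 6.25% of all.

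The highest P0 ratio was at chr13:21405863-21421713, 2.79 (2.53 to 3.08), from 622 reads in WT and 1146 in KO. The next were chr13:23985909-23993583 with 2.24 (1.57 to 3.23), from 54 and 80 reads, and chr13:22838740-22846707 with 2.12 (1.45 to 3.11), from 50 and 70 reads. The latter held most of the reads of section 3. The lowest was at chr13:23483438-23497521, 0.446 (0.387 to 0.512), from 889 reads in WT and 262 in KO. The other ratios at the low end were 0.530 (0.348 to 0.791) at chr13:21627221-21633274, from 97 and 34 reads, and 0.728 (0.513 to 1.02) at chr13:23955696-23957744, from 108 and 52 reads. Thus chr13:21627221-21633274 was lower in KO at both ages, while chr13:23483438-23497521, with the lowest P0 ratio, had a log2 change of -0.20 ± 0.30 at P8 (edgeR adjusted p = 0.631).

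Whether the genotype difference itself changed with age was tested as an interaction. Of 65 members, 1 was more positive at P8 and 1 more negative with edgeR, against 5.17% and 2.51% of all tested intervals. These were chr13:23359311-23361208 (2.55) and chr13:22035313-22043404 (-4.17), neither of which reached 10 CPM, and both calls needed the 2 WT libraries of P8 together. Without either of them edgeR called 0 intervals of the genome (5953 and 5992 had an unadjusted p under 0.05). For chr13:23483438-23497521 the interaction was 0.94 ± 0.39 (log2, SE; edgeR adjusted p = 0.215), and for chr13:21405863-21421713 it was -1.03 ± 0.42 (edgeR adjusted p = 0.205), so differences between the ages in these members did not pass the test.

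Along chromosome 13 cut into 43 tiles of 2.8 Mb, of which the window is 1, the window ranked 3 in mean level with 2738 CPM, against a median of 465 and a maximum of 3811 CPM in the others. Its P8 change between genotypes ranked 19 of 43. Its rise with age ranked 4 in WT and 6 in KO. These ranks are a description without a test. The window was thus among the tiles with most small RNA and with a large rise in age, and near the middle in its genotype difference at P8.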

How the data were processed

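The authors deposited raw read counts per genomic interval for 6 libraries, in 1 table whose rows are named by coordinates alone. Starts are counted from 0 there and printed here counted from 1. The deposit calls these values TE read counts, TE being a common short form of transposable element. No interval was assigned here to an element or to a histone or tRNA gene. Per the submitters' processing notes, the build was GRCm39 and the tools were TopHat2 2.1.1, Bowtie 1.1.1, bedtools, cutadapt 1.13 and FastQC 0.10.1. Not given in the sources used here are the step each tool served, the placing of reads that match several places, and how the intervals were made. Histone and tRNA genes occur in near-identical copies, so the level of any 1 interval depends on that placing. The notes name no use of strand. A read in overlapping rows is counted in each: the counts over all rows were 12.1 times the reads of the non-overlapping set in the window, 6.80 times on the rest of chromosome 13.

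The non-overlapping set was chosen by mean CPM over all 6 libraries, most reads first. Tests were fitted on the whole set and only the window's members are reported. The P8 genotype test used R 4.3.3 and edgeR 4.0.16 (filterByExpr, TMM, glmQLFit, glmQLFTest, two-sided, Benjamini-Hochberg, 0.05) on the 4 P8 libraries. Age and interaction contrasts came from a 4-group fit to 6 libraries, in which a single P0 library takes its spread from the P8 pairs. The SE is the absolute log2 change divided by the square root of F. At P0 no test was made. PCR copies of 1 molecule can be counted more than once, so intervals cover counting error only. The code was tested on simulated data. Replicates at P8 differed beyond sampling noise (chi-square over its degrees of freedom, 2.72 in WT and 3.12 in KO), so none was a repeated deposit; over the 59 members of at least 1 CPM, Pearson r of log2(CPM + 1) across intervals was 0.985 and 0.986.

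Named intervals are the 12 with the highest mean CPM, the 5 highest and 5 lowest called P8 changes with at least 10 CPM and non-overlapping genotypes, the 3 highest and 3 lowest P0 ratios with at least 100 reads, the 3 highest and 3 lowest called age changes per genotype and interactions with at least 10 CPM, and the densest row of up to 1000 bp within each of the 12. Members, rules and gene lists were chosen with earlier results of these data known. Alternatives tried were library totals, DESeq2 1.42.0, no read filter, a replicate block, a shortest-first set, every deposited row, and leaving out each P8 replicate. Gene names and microRNA sequences come from RefSeq GRCm38.p6; no coordinates of that build were used. The authors' deposited log2 table was not used here.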

Additional observations from a re-analysis of the deposited data

Results flagged for a closer look

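In 2 members the genotype difference at P8 differed from that at P0 by the interaction test (edgeR, adjusted over 37627 intervals). Both fall outside the naming limit of 10 CPM and were chosen after their values were seen. In chr13:23359311-23361208 (1898 bp, section 4) the libraries had 4.50 CPM (WT P0), 6.98 (KO P0), 1.33 and 2.71 (WT P8) and 19.4 and 17.1 (KO P8). Its interaction was 2.55 ± 0.49 (log2, SE; edgeR adjusted p = 0.0216), and at P8 KO was above WT by 3.21 ± 0.30 (edgeR adjusted p = 3.51e-06). In chr13:22035313-22043404 (8092 bp, section 2) they had 0.113 CPM from 1 read (WT P0), 1.87 (KO P0), 8.19 and 8.96 (WT P8) and 5.65 and 7.67 (KO P8). Its interaction was -4.17 ± 0.93 (edgeR adjusted p = 0.0372) and rests on that 1 read. Neither interaction passed the threshold once either WT library of P8 was left out, but in those edgeR fits 0 of 36636 and 0 of 36614 intervals of the whole genome were called either (5953 and 5992 at an unadjusted p under 0.05, of which 8 and 5 in the window), so the loss is not particular to these members.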

How the results depend on the processing

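Most named results kept their direction and their call or lack of a call. For KO against WT at P8, 120 of the single-interval values computed under alternatives did so, 24 lost the call, 2 gained one and 7 changed sign. The 120 include members with no call in the reported fit, which cannot lose one, so the 24 fall on the called members alone. For age these numbers were 113, 4, 0 and 2 in WT, and 100, 4, 1 and 0 in KO. The summed P8 difference (log2 0.25) was 0.20 with library totals and 0.21 to 0.29 without 1 replicate, and the P0 difference (0.48) was 0.37 with library totals.

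Of the counts at P8 (13 higher, 4 lower), DESeq2 gave 1 lower, no read filter 1 lower, the shortest-first set 7 higher and 1 lower, and every deposited interval 141 higher and 40 lower. Leaving out 1 replicate gave 7 to 14 higher and 1 to 6 lower. Over all intervals (5227 higher, 4654 lower) DESeq2 gave 3199 and 2440, no read filter 2349 lower, the shortest-first set 2682 and 2322, and every deposited interval 56606 and 51928. Leaving out 1 replicate gave 3470 to 4843 higher and 2912 to 4416 lower.

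For age in WT, 17 members fell, but 26 with library totals, 4 with DESeq2 and 6 to 18 without 1 replicate. The counts over all intervals moved too, from 14494 to 19797, 5719 and 7634 to 15607. In KO, 31 rose, but 19 with DESeq2, 16 with the shortest-first set and 20 to 32 without 1 replicate, and 14 fell, but 7 with DESeq2 and 9 to 14 without 1 replicate. For the interaction (1 and 1), library totals gave 2 more positive. DESeq2, no read filter and the shortest-first set each gave 0 and 0, with 4, 7 and 8 members at an unadjusted p under 0.05. Leaving out 1 replicate gave 0 to 3 more positive and 0 to 5 more negative, the 0 coming without WT P8 replicate 1 or 2, when edgeR called 0 intervals of the genome (5953 and 5992 at an unadjusted p under 0.05). The cause of these moves was not tested.

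The signs that changed were of values with no call in the reported fit. At P8 they were chr13:23927895-23932135 (-0.0179 without WT P8 replicate 2), chr13:23932292-23938076 (-0.0446 with every deposited interval, -0.0600 without WT P8 replicate 2) and chr13:22223512-22228505 (-0.0601 with library totals, -0.11 with every deposited interval, and -0.0869 to 0.116 without 1 replicate). For age in WT, chr13:21992691-21997783 (0.17) had -0.59 with library totals, a called fall (edgeR adjusted p = 0.0018), and -0.0170 with no read filter.

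With the replicate number as a block at P8, 15 members were higher and 6 lower, and the summed log2 difference was 0.25, from pair differences of 0.19 and 0.31. Same-numbered libraries correlated in their deviations (r = 0.29 across 11435 intervals), but with 2 pairs, and labels that give no shared source, the numbers do not show pairing. Members with few reads limit what can be tested: 94 of 147 did not enter the P8 test.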
